A study of Mus musculus with 2 samples.

Results

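The 54 genes described here are the mouse prolactin family (26 genes), the pregnancy-specific glycoprotein genes or Psg family (13 genes) and the carcinoembryonic antigen-related cell adhesion molecule genes or Ceacam family (15 genes). They were chosen by symbol alone, namely Prl and every symbol that begins with Prl, Psg or Ceacam and a digit, among 23123 gene symbols in the data. The rule uses no measured value, although earlier results of these data were known when the families were picked. Both groups were medullary thymic epithelial cells (mTEC) of wild-type B6 mice, sorted by flow cytometry from pooled thymi into cells with high and cells with low surface MHC class II, and no treatment is named. Each group gave 1 library of poly(A)-selected RNA from an unstated number of animals of unstated age, so no difference has a replicate check and none was tested. The MHC class II-high cells are called mTEChi and the low ones mTEClo below. Sequencing was paired-end (100 bases per end) for mTEChi but single-end (50 bases) for mTEClo, so read format, depth and group cannot be told apart.

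Prolactin is a pituitary hormone that acts through the prolactin receptor and the kinase JAK2 on the transcription factor STAT5. In rodents its gene was duplicated many times, and most copies are used by trophoblast or decidual cells of the placenta, among them the placental lactogens, which bind the prolactin receptor, and the proliferins, which act on blood vessels. Psg genes encode secreted immunoglobulin-domain proteins of trophoblast, whereas Ceacam genes encode related surface or secreted proteins, some of trophoblast and some, such as the inhibitory adhesion molecule Ceacam1, of epithelium, endothelium and leukocytes. Mature mTEC, under the regulator Aire and other factors, transcribe many genes of peripheral organs, and T cells that react to these products are removed or diverted.

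Many members are close copies of each other, and how near they are decides which values can be read gene by gene. Over their coding sequences the 78 pairs of Psg genes were 63.9% to 97.5% identical (median 85.4%), the 325 prolactin family pairs 48.2% to 99.6% (median 53.6%) and the 105 Ceacam pairs 18.5% to 88.8% (median 44.3%). In these and the promoter identities below, gaps between the first and the last paired base count as differences. Pairs of unlike length thus score low, and Ceacam coding sequences run from 705 to 2844 bases. The 3 placental lactogen I genes Prl3d1, Prl3d2 and Prl3d3 were 97.9% to 98.7% identical. The stretch below, bases 202 to 251 of their coding sequence, is the same in all of them and shows why a read of 50 bases from it has no single source.

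Prl3d1, Prl3d2 and Prl3d3: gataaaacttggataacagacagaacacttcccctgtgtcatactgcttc

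Where Prl3d2 differs most from both others, at coding bases 77 to 126, only 3 of 50 bases separate it from them. Capitals mark the bases that are not the same in all 3 genes.

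Prl3d2: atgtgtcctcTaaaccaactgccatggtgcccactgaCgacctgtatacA
Prl3d1: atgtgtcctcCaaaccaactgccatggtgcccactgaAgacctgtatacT
Prl3d3: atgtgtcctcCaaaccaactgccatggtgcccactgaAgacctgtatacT

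Psg21 and Psg23, the most alike pair of Psg genes, have the same first 50 coding bases. They differ most at coding bases 1145 to 1194, with 6 differences, set here in capitals.

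Psg21 and Psg23, coding bases 1 to 50: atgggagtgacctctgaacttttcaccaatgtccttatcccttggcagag
Psg21, coding bases 1145 to 1194: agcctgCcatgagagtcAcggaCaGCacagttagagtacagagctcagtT
Psg23, coding bases 1145 to 1194: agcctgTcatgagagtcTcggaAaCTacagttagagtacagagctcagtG

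Each member's transcript (GENCODE M21, matched by accession for all 54 members) was read in windows of 50 and of 100 bases, and a window counted as shared if any transcript of another gene held it exactly on either strand. In the prolactin family 18 of 26 members shared no window of 50 bases, whereas Prl2c2 shared 89.5% and Prl2c3 78.6%, mostly with each other, and the 3 Prl3d genes 57.1% to 68.2%. Every Psg gene shared some, from 0.89% for Psg29 to 45.5% for Psg21. Windows of 100 bases were shared less, at most 18.0% in the Psg family and 0 for Psg27, the highest Psg gene. Among Ceacam genes, 45.7% of the Ceacam2 windows of 50 bases and 16.9% of the Ceacam1 windows were shared, nearly all with each other, and 4.6% of the Ceacam10 windows. The other members above 10% were Ceacam16 (17.8%) and Ceacam5 (13.8%), whose windows were shared with predicted genes. The sources used here do not say how the authors placed reads that fit several genes. The split of reads within Prl2c, within Prl3d, between Psg21 and Psg23 and between Ceacam1 and Ceacam2 is therefore uncertain. So is that among Psg18, Psg26 and Psg28, which share 17.1%, 35.9% and 31.5% of their windows of 50 bases.

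**Figure D1:**
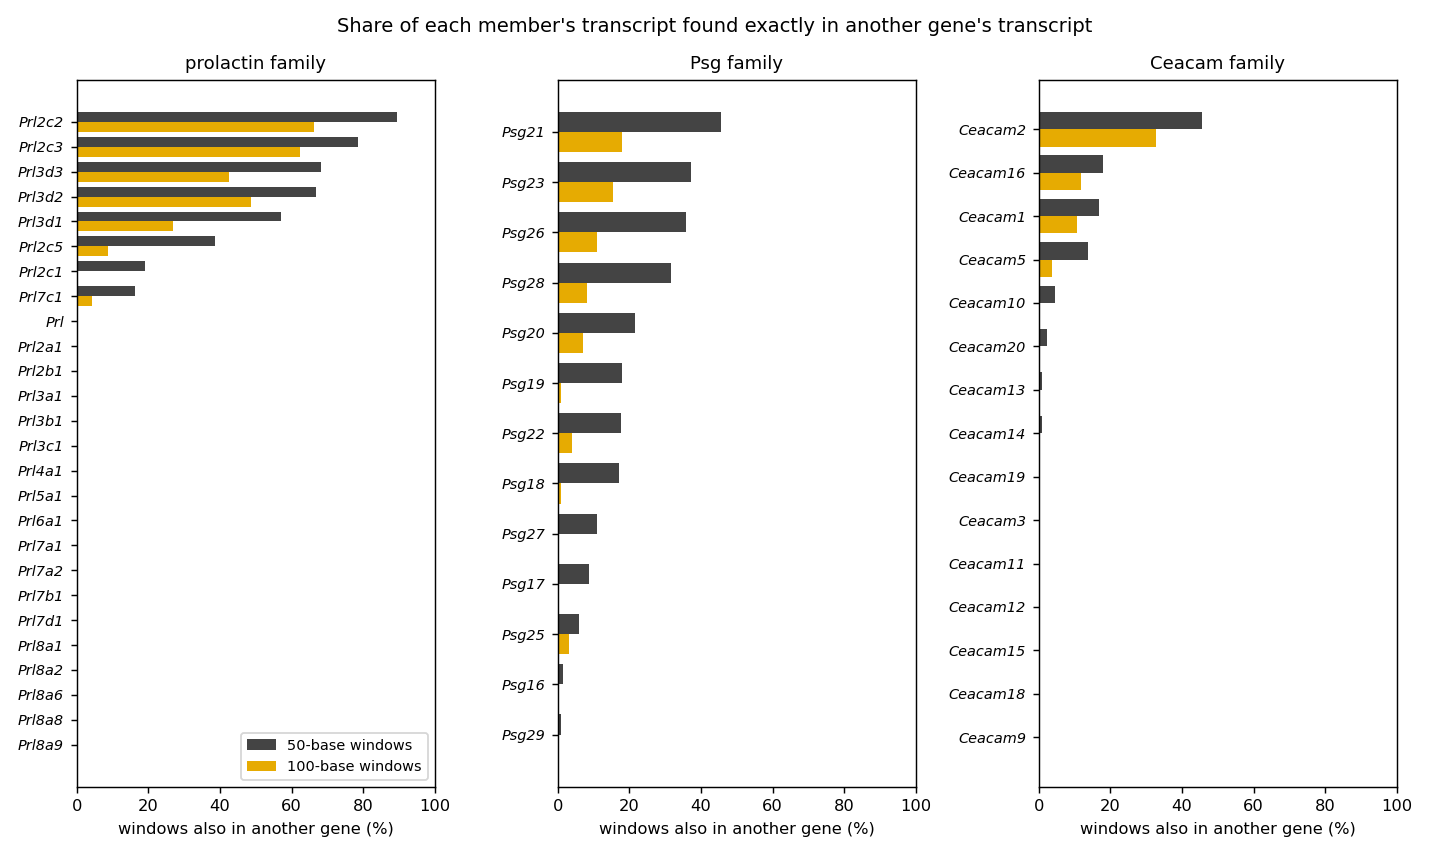
Share of the windows of each member's transcript, in percent, that occur exactly in a transcript of another gene, for windows of 50 bases (grey bars) and of 100 bases (yellow bars), in 1 panel per family. Prl2c2 has the longest bar at 89.5%, 18 prolactin family members have none, and every Psg gene has a grey bar.

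Values are RPKM, read counts scaled by transcript length and library depth, as the authors deposited them. A member's value is its transcript line with the highest mean, and 10 members have several lines. Multiplied by transcript length, low values fall on steps of 1 read, which put the depth at about 114000000 reads for mTEChi and 21000000 reads for mTEClo, a ratio of 5.46. Differences are log2((high + 1)/(low x 1.21 + 1)), where 1.21 sets the median ratio of well-expressed genes to 0 on the log2 scale, and the added 1 RPKM understates the difference of low genes. A gene was kept if its mean reached 0.5 RPKM, and 2-fold (1 on the log2 scale) is the threshold. Of 15590 kept genes, 16.1% were at least 2-fold higher and 9.35% at least 2-fold lower in mTEChi. A gene at 0 in mTEClo is kept only if it reaches 1 RPKM in mTEChi and is then past 2-fold by construction, so calls of such genes are no result. Rps21, a ribosomal protein gene that every cell uses, was listed at 144 RPKM in mTEChi and 0 in mTEClo, so an exact 0 there may be a failed estimate. The sort markers fitted the labels: 6 of 6 mature mTEC genes were 2-fold higher in mTEChi (Aire 122 against 15.9 RPKM, Cd80 47.9 against 5.77 RPKM), and the epithelial gene Epcam stood at 198 and 127 RPKM.

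The families stood at different levels. In mTEChi the median level was 0.257 RPKM for the prolactin family, 1.19 RPKM for the Psg family and 2.45 RPKM for the Ceacam family, beside 2.33 RPKM over all genes. In mTEClo the medians were 0, 0 and 0.0293 RPKM, beside 1.67 RPKM over all genes. Of the members, 23 passed the filter, 6 prolactin family, 7 Psg and 10 Ceacam genes, against 67.4% of all genes. The members nearest the limit were Psg17 just below it with a mean of 0.476 RPKM and Ceacam11 just above it with 0.556 RPKM. In these bulk libraries, fewer cells that make a transcript and less of it per cell cannot be told apart.

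**Figure D2:**
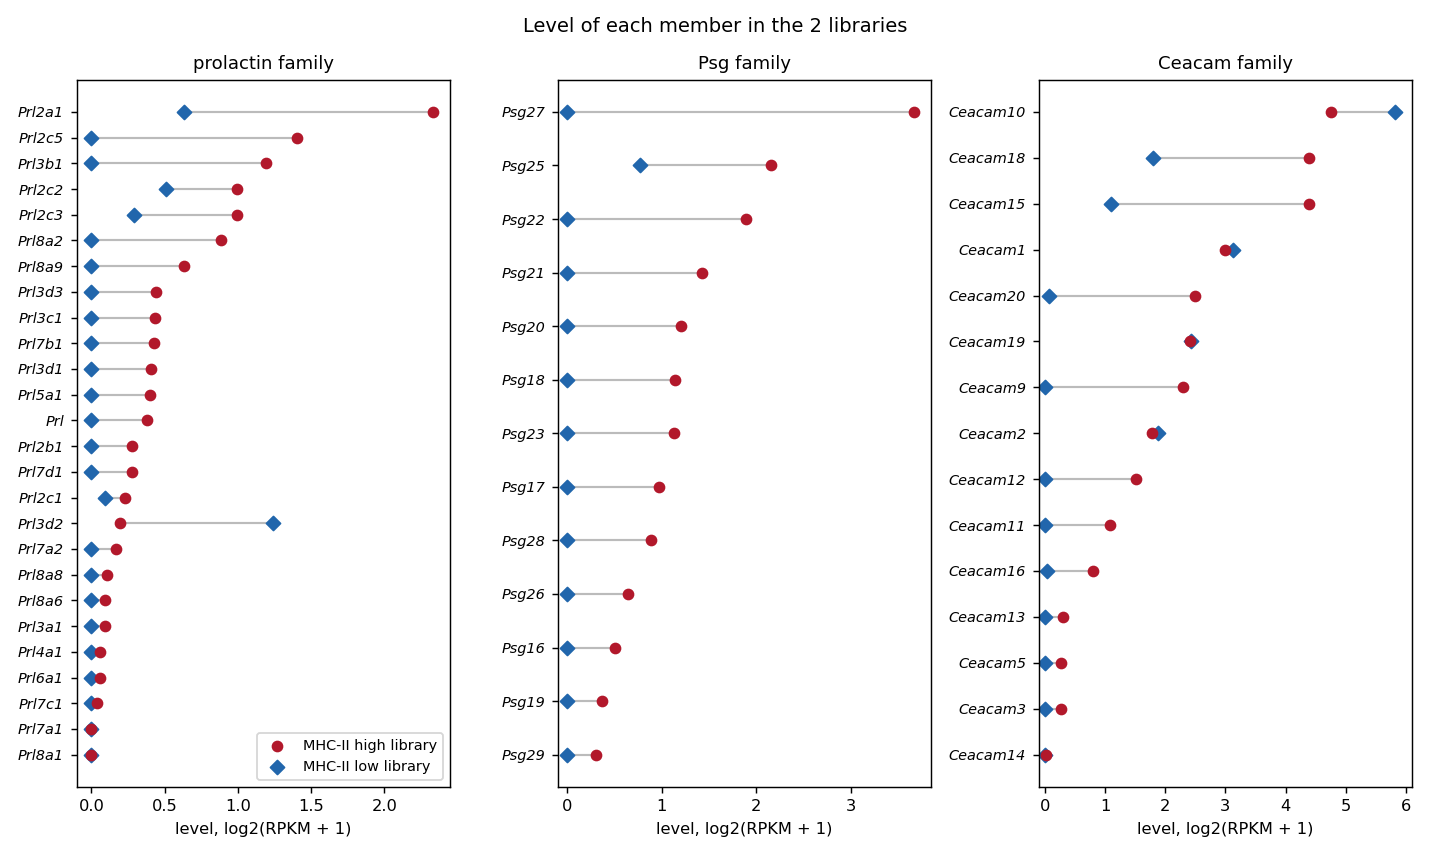
Level of each of the 54 members as log2(RPKM + 1) in mTEChi (red circles) and mTEClo (blue diamonds), in 1 panel per family with its own axis range, sorted by mTEChi. Only Prl3d2 in the prolactin family lies to the right in mTEClo, 12 of 13 Psg genes sit at 0 there, and Ceacam10 has the highest level of all members in both libraries.

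Every Psg gene had a value above 0 in mTEChi, and every one but Psg25 was at 0 in mTEClo. Their levels in mTEChi, where 9.84% of all genes are at 0, ran from 0.235 RPKM (Psg29) to 11.7 RPKM (Psg27), and 12 of 13 were listed at 0 in mTEClo, against 30.9% of all genes. All 7 kept members were past 2-fold higher, 6 of them at 0 in mTEClo (as were 5.32% of all kept genes) and therefore past it by construction, beside 16.1% of all kept genes. Their median difference of 1.26 on the log2 scale is above 1 by the same construction, and over all 13 members, without the filter, the median was 1.13.

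Psg27 was listed at 11.7 RPKM in mTEChi (95% counting interval 11.3 to 12.2) and at 0 in mTEClo. At the same level after scaling, 394.4 reads would be expected for it in mTEClo, where a count of 0 allows up to 0.0737 RPKM (3 reads). Its level in mTEChi was more than that of any other Psg gene, and of its windows of 50 bases 10.9% are shared with another gene. Psg25 was listed at 3.44 RPKM in mTEChi and 0.702 RPKM in mTEClo, a log2 ratio without pseudocount of 2.02 (counting interval 1.59 to 2.47). It is the only Psg gene above 0 in mTEClo. Psg22, a Psg gene of early trophoblast giant cells, was listed at 2.7 RPKM against 0. Psg21 was listed at 1.68 RPKM and its near copy Psg23 at 1.19 RPKM in mTEChi, both at 0 in mTEClo. Their sum of 2.88 against 0 RPKM depends less on how reads were split between them, although both share windows with other genes too. Psg20 was listed at 1.31 RPKM and Psg18 at 1.21 RPKM, both at 0 in mTEClo. The other transcript line of Psg18 had 0.592 RPKM in mTEChi and 0 in mTEClo. Under the mean over transcript lines Psg18 was not kept, and 6 Psg genes were past 2-fold higher. Psg18 shares windows with Psg26 and Psg28, and the sum of these 3 genes was 2.62 against 0 RPKM. The 6 Psg genes that were not kept had 0.235 to 0.953 RPKM in mTEChi (median 0.487). They were Psg16, Psg17, Psg19, Psg26, Psg28 and Psg29, all at 0 in mTEClo. Psg17, whose product binds the tetraspanin CD9, was the highest of them at 0.953 RPKM.

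Most prolactin family genes were too low for the depth of mTEClo, where 7 of 26 had 10 or more reads expected, with only Prl2a1, Prl2c5 and Prl3b1 above 1 RPKM in mTEChi. Of 26 members, 2 were at 0 in mTEChi and 21 in mTEClo, beside 9.84% and 30.9% of all genes. Of 6 kept members, 3 were at least 2-fold higher in mTEChi (Prl2a1, and Prl2c5 and Prl3b1 at 0 in mTEClo), 1 was 2-fold lower (Prl3d2) and 2 lay between, beside 16.1% higher and 9.35% lower over all kept genes. Of the 4 kept members above 0 in mTEClo, 1 was at least 2-fold higher, beside 11.4% of all kept genes above 0 there. The median difference was 0.92 on the log2 scale over the 6, 0.52 over these 4 and 0.33 over all members without the filter.

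Prl2a1, a placental member also known as prolactin-like protein M, was listed at 4.04 RPKM in mTEChi (counting interval 3.66 to 4.46) and 0.55 RPKM in mTEClo (0.259 to 0.992). Its log2 ratio without pseudocount was 2.60 (counting interval 1.74 to 3.70), and none of its windows of 50 bases is shared. It had the highest level of the family in mTEChi. Among the proliferins, Prl2c2 was listed at 0.992 against 0.424 RPKM, Prl2c3 at 0.991 against 0.225 RPKM and Prl2c5 at 1.64 RPKM against 0. Since these genes share windows, their sum depends less on how reads were split, 3.63 RPKM in mTEChi and 0.649 RPKM in mTEClo. The log2 ratio of Prl2c2 alone (0.95) had a counting interval from -0.04 to 2.41, which includes no difference, and that of Prl2c3 (1.87) ran from 0.48 to 3.78.

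Of the placental lactogens, Prl3b1 (placental lactogen II) was listed at 1.29 RPKM in mTEChi (counting interval 1.08 to 1.54) and at 0 in mTEClo, where 19.7 reads would be expected. The placental lactogen I genes Prl3d1 and Prl3d3 were listed at 0.328 and 0.36 RPKM in mTEChi and at 0 in mTEClo. Prl3d2 went the other way, with 0.146 RPKM in mTEChi and 1.36 RPKM in mTEClo. It rested on about 24.3 reads in mTEClo where 2.2 would be expected, a log2 ratio without pseudocount of -3.49 (counting interval -4.56 to -2.49), and its difference with pseudocount was -1.21. With the upper quartiles of both libraries made equal this difference was -0.95 and no longer past 2-fold. Prl3d2 shares 66.9% of its windows of 50 bases, and the sum over the 3 near-identical genes was 0.835 RPKM in mTEChi and 1.36 RPKM in mTEClo.

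Prolactin itself, Prl, was listed at 0.303 RPKM in mTEChi, about 31.0 reads, and at 0 in mTEClo, where 4.7 reads would be expected. A count of 0 allows up to 0.16 RPKM (3 reads) in mTEClo. The other members that were not kept reached at most 0.851 RPKM in mTEChi (Prl8a2, the decidual prolactin-related protein), with a median of 0.191 RPKM over all 20 that were not kept. Prl8a9 was listed at 0.55 RPKM, Prl3c1 at 0.35 RPKM, Prl7b1 at 0.348 RPKM, Prl5a1 at 0.317 RPKM and Prl2b1 at 0.212 RPKM, each at 0 in mTEClo. Prl7d1, the proliferin-related protein that restrains vessel growth, was listed at 0.21 RPKM against 0. Prl2c1 was listed at 0.173 against 0.0678 RPKM, the latter 1 read. Prl7a2, Prl8a8, Prl8a6, Prl3a1, Prl4a1, Prl6a1 and Prl7c1 lay between 0.123 and 0.0257 RPKM in mTEChi and at 0 in mTEClo. Prl7a1 and Prl8a1 were listed at 0 in both libraries.

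The Ceacam family split into genes far higher in mTEChi, genes at like levels in both, and Ceacam10, which was higher in mTEClo. Of 15 members, 0 were at 0 in mTEChi and 7 in mTEClo, beside 9.84% and 30.9% of all genes. Of 10 kept members, 6 were at least 2-fold higher, 1 was 2-fold lower and 3 lay between, beside 16.1% and 9.35% over all kept genes. Of the 7 kept members above 0 in mTEClo, 3 were at least 2-fold higher, beside 11.4% of all kept genes above 0 there. The median difference of 1.29 over the 10 lies between the values of Ceacam11 (1.08) and Ceacam12 (1.51). Both are at 0 in mTEClo and past 2-fold by construction, so this median is above 1 by the same construction. Over these 7 the median has the other sign, -0.25, and over all members without the filter it was 0.31.

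Ceacam15 was listed at 19.9 RPKM in mTEChi (counting interval 19.2 to 20.6) and 1.14 RPKM in mTEClo (0.779 to 1.59), a difference of 3.14 on the log2 scale with the pseudocount. Ceacam18 was listed at 20.0 against 2.47 RPKM, a difference of 2.40. Ceacam20, found in the microvilli of intestinal epithelium, was listed at 4.65 against 0.0496 RPKM, the latter 3.0 reads where 232.8 would be expected, with a log2 ratio without pseudocount of 6.28 (counting interval 4.73 to 8.56). None of the windows of 50 bases of Ceacam15 and Ceacam18 is shared, and 2.36% of those of Ceacam20 are. Ceacam16, a protein of the tectorial membrane of the inner ear, was listed at 0.74 RPKM against 0.0293 RPKM, 1 read where 21.0 would be expected, and did not pass the filter.

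Ceacam3, Ceacam5, Ceacam9, Ceacam11, Ceacam12, Ceacam13 and Ceacam14, most of them genes of trophoblast, were listed at 0 in mTEClo. Ceacam9 was listed at 3.93 RPKM against 0, where 95.2 reads would be expected. Ceacam12 was listed at 1.85 RPKM and Ceacam11 at 1.11 RPKM, both against 0. Ceacam13, Ceacam5 and Ceacam3 were listed at 0.239, 0.209 and 0.201 RPKM and Ceacam14 at 0.0085 RPKM, about 1 read, all at 0 in mTEClo.

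Ceacam10 was listed at 26.0 RPKM in mTEChi (counting interval 25.1 to 26.9) and 55.4 RPKM in mTEClo (52.3 to 58.6), the highest level of all 54 members in both. Its difference was -1.33 on the log2 scale, -1.06 without scaling and -0.90 with equal upper quartiles, where it is no longer past 2-fold. Ceacam1, an inhibitory adhesion molecule that signals through the phosphatase SHP-1, was listed at 7.0 against 7.69 RPKM. Its 4 transcript lines had 6.44 to 7.0 RPKM in mTEChi and 7.33 to 7.69 RPKM in mTEClo. Its close copy Ceacam2 was listed at 2.45 against 2.69 RPKM, and Ceacam19 at 4.32 against 4.41 RPKM. These 3 genes lay between -0.36 and -0.25 on the log2 scale, and with equal upper quartiles they lay at 0.02, 0.02 and 0.11, so their sign depends on the scaling while none reaches 2-fold.

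Marker genes of several cell types differed between the libraries, and their part in these values was not tested. Beside the counts below, 16.1% of all kept genes were 2-fold higher and 9.35% lower in mTEChi. Fibroblast genes had 6 of 6 members 2-fold lower in mTEChi (summed level 32.5 against 652 RPKM) and endothelial genes 6 of 6 (16.5 against 133 RPKM), in the direction of Ceacam10. Immature mTEC genes, listed as markers of mTEC themselves, had 5 of 5 members lower (1052 against 4630 RPKM), in the same direction. Whether other cells gave part of their reads was not tested. Erythroid genes summed to 142 against 1926 RPKM, nearly all of it Hba-a1 (133 against 1915 RPKM), with 1 of 2 kept members 2-fold lower. Neutrophil genes had 5 of 5 kept members 2-fold higher (8 measured, summed level 460 against 41.5 RPKM), among them S100a8 with 237 against 15.4 RPKM, in the direction of the Psg genes. Of the neutrophil markers Camp, Mpo, Csf3r and Elane were at 0 in mTEClo, and Csf3r stood at 0.381 RPKM in mTEChi. Camp and Mpo, both kept, were thus past 2-fold by construction. Dendritic cell and macrophage genes had 5 of 6 kept members higher (525 against 138 RPKM), with nearly all of the sum from Lyz2 (493 against 133 RPKM). Flt3, among the 5, was at 0 in mTEClo and past 2-fold by construction. Thymocyte genes had 1 of 5 kept members 2-fold higher, B cell genes 1 of 3 (Cd79a, at 0 in mTEClo) and cortical epithelial genes 2 of 4. In each of these lists 0 were 2-fold lower.

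Reads expected in mTEClo put the values of 0 in proportion. Among all genes with 10 to 50 expected reads 38.3% of 3467 were listed at 0, and among those with 50 to 1000 expected reads 4.4% of 10880. In the first class 9 of 9 Psg genes, 4 of 6 prolactin family genes and 4 of 5 Ceacam genes were at 0. In the second class 3 of 4 Psg genes (Psg21, Psg22 and Psg27), 0 of 1 prolactin family gene and 1 of 8 Ceacam genes (Ceacam9) were at 0. The 33 members of both classes were also split by shared sequence. Of the 17 that share under 10% of their windows of 50 bases 10 were at 0, and of the 16 that share 10% or more 11 were at 0.

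**Figure D3:**
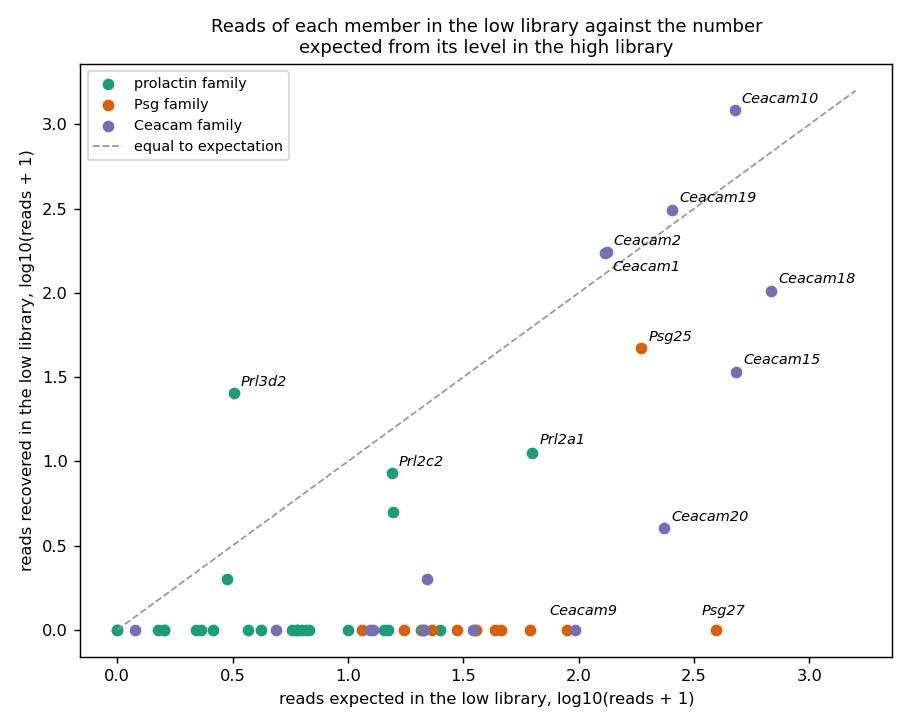
Reads recovered in mTEClo for each member (vertical, log10(reads + 1)) against those expected from its level in mTEChi (horizontal, same scale), coloured by family, with a dashed line where both are equal. Psg27 lies at 0 with 394.4 reads expected, Ceacam10 and Prl3d2 lie above the line, and Ceacam1, Ceacam2 and Ceacam19 lie close to it.

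By chromosome, all 26 prolactin family genes are on chromosome 13 and all 28 Psg and Ceacam genes on chromosome 7 of the mouse reference. Ordered along chromosome 7, the run from Ceacam9 to Psg17 holds 20 members, and Psg25 is the only one of them above 0 in mTEClo. Psg25 and Psg27, the highest Psg genes in mTEChi, are next to each other among the members. The chromosome 7 members above 1 RPKM in mTEClo (Ceacam15, Ceacam19, Ceacam10, Ceacam1, Ceacam2 and Ceacam18) lie on either side of that run. On chromosome 13, Prl2a1 lies between Prl7c1 (0.0257 RPKM) and Prl2c1 (0.173 RPKM), so its level of 4.04 RPKM was not shared by its neighbours.

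**Figure D4:**
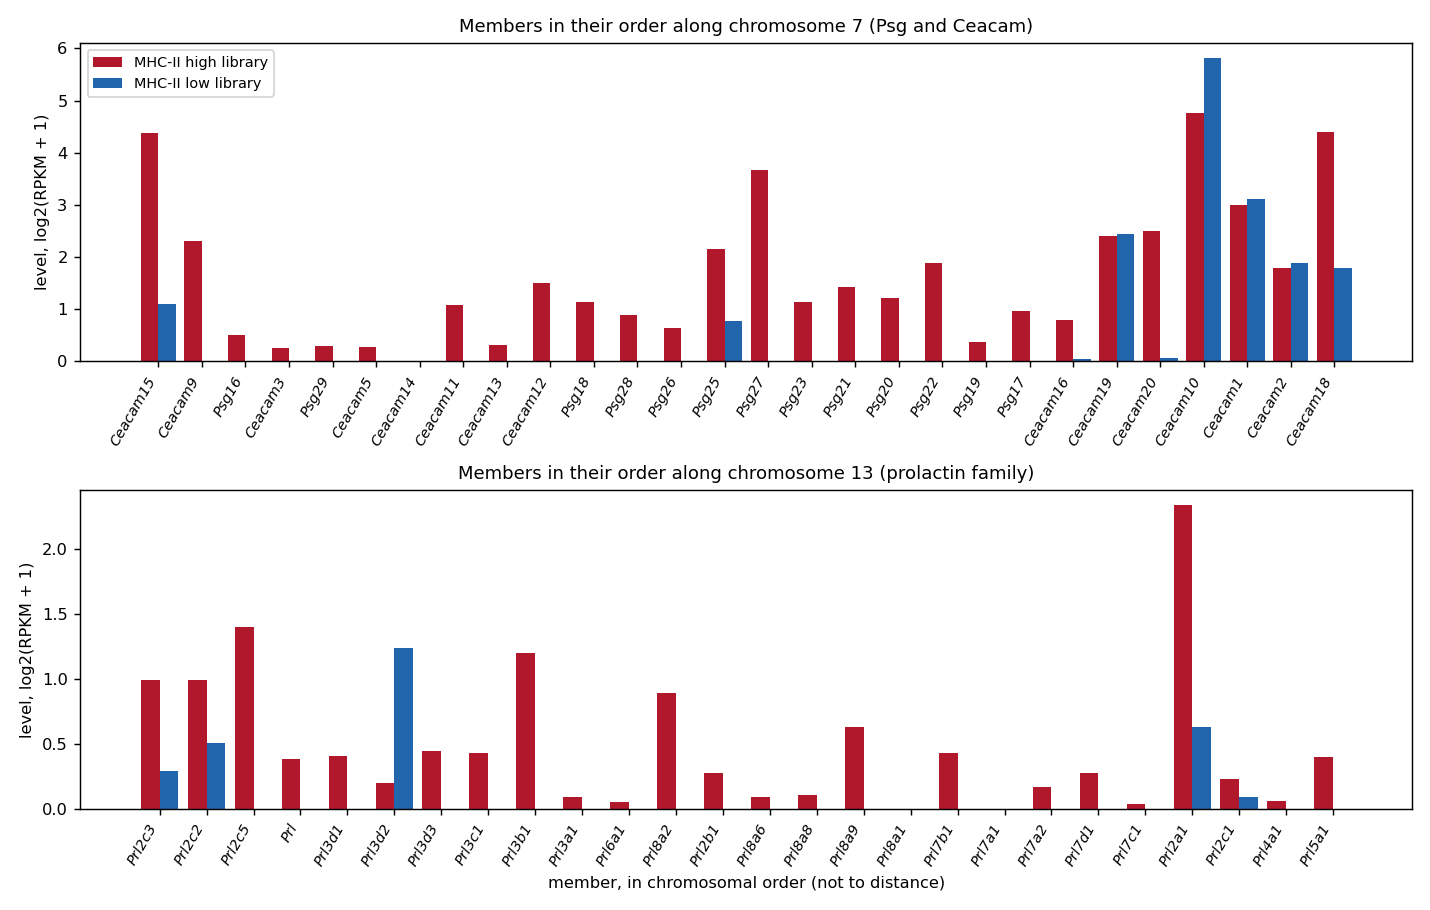
Level of each member as log2(RPKM + 1) in mTEChi (red bars) and mTEClo (blue bars), in the order of the genes along chromosome 7 (upper panel) and chromosome 13 (lower panel), without regard to distance. From Ceacam9 to Psg17 the only blue bar is that of Psg25, and Prl3d2 is the only prolactin family gene with the taller blue bar.

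Promoter sequences were at hand for 45 of the 54 members (51 start sites; RefSeq, build GRCm38.p6, 250 bases before to 50 after the start). They are poor in CpG, with a median of 2 CpG per 300 bases in each family against 7 over 32851 promoters. Within the Psg family promoters were 46.2% to 98.7% identical (median 83.9% over 45 pairs), within the prolactin family 43.0% to 99.7% (median 52.0%) and within the Ceacam family 40.1% to 92.9% (median 47.3%), beside a median of 47.3% between prolactin family and other members. The median promoter identity of the Psg genes (83.9%) was close to that of their coding sequences (85.4%).

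Motifs were searched on both strands. They were TGANTCA for the AP-1 factors, AGATAA for the GATA factors and TATAAA for the basal promoter element that binds TBP. AP-1 and GATA factors are known regulators of the placental lactogen I gene in trophoblast. TGANTCA was found in 36.0% of 25 prolactin family promoters, 36.4% of 11 Psg promoters and 6.67% of 15 Ceacam promoters, against 7.81% of all promoters. AGATAA was found in 48.0%, 9.09% and 53.3% of them, against 11.2%. TATAAA was found in 24.0%, 0 and 33.3%, against 13.6%. Close copies are not independent. The 3 Prl3d promoters, of the placental lactogen I genes (97.9% to 99.7% identical), each hold TGANTCA, but none of them holds AGATAA. The promoters of Prl2c3, Prl2c5 and Prl7d1 (94.3% to 95.7% identical) each hold AGATAA. Among the Psg genes, with 1 start site per gene, only Psg18, Psg27 and Psg28 hold TGANTCA. The promoters of Psg18 and Psg28 are 97.6% identical.

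Promoters of members with contrasting values are printed 5' to 3' with the matches in capitals. The Psg genes shown are the highest (Psg27), a lower one at 0 in mTEClo (Psg18) and the only one above 0 there (Psg25). Psg27 and Psg18 hold TGANTCA and Psg25 does not, but neither do Psg17, Psg20, Psg21, Psg23, Psg26 and Psg29, which were at 0 in mTEClo as well.

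Psg27, chr7:18567256-18567555, minus strand: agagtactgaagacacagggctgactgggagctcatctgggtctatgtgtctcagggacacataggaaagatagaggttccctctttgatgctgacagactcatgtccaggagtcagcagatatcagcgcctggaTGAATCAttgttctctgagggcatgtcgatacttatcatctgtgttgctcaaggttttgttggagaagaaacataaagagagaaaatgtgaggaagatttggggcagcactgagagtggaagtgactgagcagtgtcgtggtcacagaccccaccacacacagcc
Psg18, chr7:18354944-18355243, minus strand: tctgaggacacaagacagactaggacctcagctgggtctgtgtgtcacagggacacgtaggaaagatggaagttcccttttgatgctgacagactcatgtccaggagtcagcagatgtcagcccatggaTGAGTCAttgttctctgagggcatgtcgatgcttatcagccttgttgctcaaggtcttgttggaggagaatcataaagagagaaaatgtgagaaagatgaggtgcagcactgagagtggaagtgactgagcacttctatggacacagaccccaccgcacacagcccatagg
Psg25, chr7:18532178-18532477, minus strand: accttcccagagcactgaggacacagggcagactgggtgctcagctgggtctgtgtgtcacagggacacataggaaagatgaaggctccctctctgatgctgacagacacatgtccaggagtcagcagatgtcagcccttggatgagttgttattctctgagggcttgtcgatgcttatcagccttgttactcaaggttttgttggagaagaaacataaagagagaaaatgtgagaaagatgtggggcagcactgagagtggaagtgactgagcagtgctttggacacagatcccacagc

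The Ceacam genes shown are the 2 with high levels that were over 4-fold higher in mTEChi and Ceacam10, which was lower. Of the 3 only Ceacam18 holds matches, with TATAAA and AGATAA at 2 places each, the second pair overlapping by 1 base.

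Ceacam15, chr7:16675656-16675955, minus strand: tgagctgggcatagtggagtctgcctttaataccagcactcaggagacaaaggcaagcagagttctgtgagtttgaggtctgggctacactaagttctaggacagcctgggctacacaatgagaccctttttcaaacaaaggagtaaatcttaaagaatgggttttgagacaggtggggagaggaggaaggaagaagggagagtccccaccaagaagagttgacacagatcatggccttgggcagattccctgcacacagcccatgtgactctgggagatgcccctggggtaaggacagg
Ceacam18, chr7:43634489-43634788, plus strand: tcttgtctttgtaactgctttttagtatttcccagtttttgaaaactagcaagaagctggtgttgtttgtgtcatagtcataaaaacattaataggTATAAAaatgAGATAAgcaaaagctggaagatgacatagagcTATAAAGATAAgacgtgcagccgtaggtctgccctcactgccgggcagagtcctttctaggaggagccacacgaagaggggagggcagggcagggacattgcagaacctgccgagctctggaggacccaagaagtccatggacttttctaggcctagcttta
Ceacam10, chr7:24776917-24777216, plus strand: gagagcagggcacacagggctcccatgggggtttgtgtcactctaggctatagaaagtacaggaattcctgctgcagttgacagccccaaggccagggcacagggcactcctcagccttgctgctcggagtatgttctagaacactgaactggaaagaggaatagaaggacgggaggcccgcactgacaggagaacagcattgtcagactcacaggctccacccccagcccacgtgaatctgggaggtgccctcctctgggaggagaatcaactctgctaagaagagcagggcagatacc

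The prolactin family genes shown are Prl2a1, the highest in mTEChi, and Prl3d2, the only one higher in mTEClo. Prl2a1 holds no exact match to the motifs, and Prl3d2 holds TGANTCA 96 bases before the start.

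Prl2a1, chr13:27801405-27801704, plus strand: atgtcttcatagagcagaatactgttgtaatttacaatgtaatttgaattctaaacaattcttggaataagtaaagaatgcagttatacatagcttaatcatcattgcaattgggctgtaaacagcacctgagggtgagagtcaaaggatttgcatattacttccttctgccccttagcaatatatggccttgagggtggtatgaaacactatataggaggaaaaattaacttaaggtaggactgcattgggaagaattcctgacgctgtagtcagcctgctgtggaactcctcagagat
Prl3d2, chr13:27121445-27121744, plus strand: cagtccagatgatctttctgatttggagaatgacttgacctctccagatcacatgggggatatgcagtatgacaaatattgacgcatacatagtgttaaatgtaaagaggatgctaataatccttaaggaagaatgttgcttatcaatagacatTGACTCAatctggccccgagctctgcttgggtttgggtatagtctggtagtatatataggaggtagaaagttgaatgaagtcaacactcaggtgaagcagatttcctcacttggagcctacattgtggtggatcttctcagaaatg

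Genes around these families were read from lists of related function. The prolactin receptor and signalling list had 2 of 12 members 2-fold higher and 1 lower, with a median difference of -0.18, beside 16.1% and 9.35% over all kept genes. The 2 higher ones were Elf5 (2.98 against 0.406 RPKM) and Gh, at 0 in mTEClo and so past 2-fold by construction. Gh is a hormone gene and is counted in the pituitary list below as well. The receptor gene Prlr stood at 0.608 against 0.857 RPKM. Its targets and inhibitors were far higher: Socs3 stood at 75.3 against 273 RPKM (the lower one), Cish at 61.7 against 78.4 RPKM and Socs1 at 38.6 against 34.9 RPKM. Stat5a, the transducer, stood at 34.7 against 18.9 RPKM.

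Other placental and trophoblast genes had 8 of 15 kept members 2-fold higher and 0 lower (29 measured of 30), beside 16.1% and 9.35% over all kept genes. Of the 8, Hand1, Ctsj and Rhox9 were at 0 in mTEClo and so past 2-fold by construction. Of the 29 measured, 16 were listed at 0 there, beside 30.9% of all genes. Among the highest were Plac8 (109 against 129 RPKM), Tfap2c (8.14 against 0.724 RPKM) and Dlx3 (3.92 against 0.698 RPKM), genes that other epithelia use as well. The 6 trophoblast markers summed to 7.71 against 0.893 RPKM. Of these, Hand1, of giant cells and of heart, stood at 4.55 RPKM against 0, Plac1 at 1.78 against 0.492 RPKM and Syna, a syncytin gene, at 0.767 against 0.377 RPKM. Synb stood at 0.247 RPKM against 0, Gcm1, the regulator of the labyrinth, at 0.24 against 0.0235 RPKM and Tpbpa, of the spongiotrophoblast, at 0.127 RPKM against 0. Of the trophoblast markers Hand1, Synb and Tpbpa were at 0 in mTEClo and none in mTEChi.

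Pituitary hormones and factors had 5 of 6 kept members 2-fold higher (9 measured) and 0 lower, beside 16.1% and 9.35% over all kept genes. Of the 5, Cga, Gh and Tshb were at 0 in mTEClo and so past 2-fold by construction. The gene of growth hormone, Gh, whose product is related to prolactin, stood at 6.57 RPKM against 0, Cga, the common glycoprotein hormone chain, at 12.0 RPKM against 0, and Pomc at 41.6 against 3.04 RPKM. Pou1f1, the factor that drives Prl and Gh in the pituitary, stood at 0.855 RPKM against 0. Prl, at 0.303 RPKM, was thus far below Gh in mTEChi. Partners of CEACAM and PSG proteins had 0 of 7 kept members higher and 1 lower, Cd36 with 2.2 against 9.13 RPKM. Cd9 stood at 162 against 145 RPKM, and Ptpn6, which encodes SHP-1, at 47.1 against 30.3 RPKM.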

How the data were processed

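RNA of 2 libraries, 1 per group, was measured. The authors deposited RPKM per RefSeq transcript. Per the submitters' processing notes, the build was mm9 and the tools were Bowtie 1.0.0, CASAVA and bedtools, with no role stated for each. Per the labels' protocols, the kit does not mark strand, so reads cannot be assigned between genes that overlap on opposite strands.

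Gene symbols came from RefSeq for 30216 and from GENCODE for 180 of the 30794 lines, and the other 398 were left out. The members and lists were chosen with earlier results of these data known. The log2 differences, scaling (over 5167 genes whose mean reached 10 RPKM), filter and threshold are given in the report. Depth was recovered from the steps of RPKM times transcript length, and among transcripts with 1 to 10 reads, 77.2% of 1639 in mTEChi and 65.8% of 1060 in mTEClo came within 0.1 of a whole read. Poisson intervals for levels and Clopper-Pearson intervals for ratios (95%) cover counting error only. Every kept member was named, with those below the filter by name and range, plus up to 4 genes per related list by highest mean, of which 1 is not reported here. Prlr, Elf5, Cd36, Pou1f1, Tshb, Ctsj, Rhox9 and the marker genes printed were added after their values were seen. The calling step was tested on simulated data for 15417 genes, where 88.0% of genes 4-fold higher and 89.0% of genes 4-fold lower in mTEChi were called. The simulated reads held counting error only, without failed values of 0 or variation between libraries. The changed genes were drawn from all kept levels. These rates therefore do not carry over to members near 1 RPKM, where the pseudocount shrinks differences. Pseudocount, scaling, filter and the choice of transcript line were varied. The tools were Biopython 1.88, matplotlib 3.10.9, scipy 1.17.1, pandas 2.3.3, numpy 2.4.6 and Python 3.11.15. Coordinates of promoters are those of GRCm38.p6, not of the authors' build.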

Additional observations from a re-analysis of the deposited data

How the results depend on the processing

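No paired analysis was possible because each group has 1 library and the labels give no replicate numbers, and leaving out a library leaves nothing to compare. With a pseudocount of 5 RPKM, 0 prolactin family genes were 2-fold higher and 0 lower (their median was 0.26), 1 Psg gene was higher with a family median of 0.42, and 2 Ceacam genes were higher with a median of 0.37. With a pseudocount of 0.1 RPKM the medians were 2.00 for the prolactin family, 3.82 for Psg and 3.15 for Ceacam genes. With equal upper quartiles 0 prolactin family and 0 Ceacam genes were 2-fold lower. Without a filter they were 0.33, 1.13 and 0.31. With a mean of 2 RPKM or more required, 1 prolactin family gene was higher and 0 lower (median 1.60, of Prl2a1 alone), 2 Psg genes (median 2.47) and 3 Ceacam genes were higher, and the Ceacam median was -0.25. With the members at 0 in mTEClo left out, an alternative chosen after seeing the data, 1 prolactin family gene, 1 Psg gene and 3 Ceacam genes were higher, with medians of 0.52, 1.26 and -0.25. Fewer members tested follow from the construction of the stricter filter and of this last alternative. Of the differences of single members under all alternatives, 130 stayed on the same side of 2-fold, 16 fell below it and 1 passed it. The 1 that passed was Prl2c3, at 1.55 with a pseudocount of 0.1 RPKM. Many of the 130 could not move. A changed filter leaves a member's difference as it is, and scaling does not move that of a member at 0 in mTEClo. Their number is thus no measure of how stable the differences are. With equal upper quartiles Ceacam1 (0.02), Ceacam2 (0.02) and Ceacam19 (0.11) changed sign. Depth limits the mTEClo values, where 1 read is often the lowest value above 0.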
